A study of Mus musculus with 12 samples.

Results

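Chemokines, interleukins and the receptors of both were examined in mouse fibroblasts given a myogenic transcription factor by retrovirus. The genes were chosen by symbol: Ccl, Cxcl, Ccr, Cxcr or Il followed by a digit, for probe sets with 1 symbol only. The probe set with the highest average signal stood for its gene. This gave 80 genes on 92 probe sets, of 8251 genes with 1 symbol in all. Of the 80 genes, 31 had a deposited signal above 15.02, the 40th percentile of all signals, in at least 3 of the 12 arrays, and the other 49 did not and were not tested. That is 38.8% of them above the filter, beside 76.1% of all genes with 1 symbol (6277 of 8251).

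All cells came from 2C5/7, an adherent line derived from embryonic fibroblasts that has no functional MyoD or Myf5 gene of its own (myoD-/-;myf5-/-). The 4 groups, of 3 arrays each, carried a virus for MyoD, Myf5 or myogenin or, in the last, for no factor. The viral LTR promoter drove each factor, with the green fluorescent protein hrGFP translated from the same mRNA by way of an IRES, and the last group expressed hrGFP by itself. Infected cells were sorted by fluorescence as a non-clonal population of 75 to 85% estimated purity. The growth medium was DMEM with 10% fetal calf serum and penicillin/streptomycin. The hrGFP and myogenin groups served as controls according to the labels. Replicates are not stated to be separate cultures, so p-values measure only the spread between these samples, which may be technical.

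Chemokines are small secreted proteins that direct the movement of leukocytes. In the CC family the first cysteines are adjacent, and in the CXC family a residue separates them. They act through G-protein-coupled receptors, named Ccr and Cxcr after the ligand class. Interleukins signal between immune and stromal cells, and their receptors often pair a ligand-specific chain with a shared one, such as gp130, encoded by Il6st, for interleukin-6. Fibroblasts are a known source of Ccl2, Ccl7, Cxcl1, Cxcl12 and interleukin-6, and skeletal muscle also makes interleukin-6.

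Values per array are given as normalised signals, after quantile normalization of log2(signal + 6.33) and return to the linear scale. A change is a difference of mean log2 values ± the limma standard error (n = 3 per group). It was called at an adjusted p under 0.05, by the Benjamini-Hochberg method over all 8485 probe sets tested. The added 6.33 understates changes of genes with low signal. Signals of different probe sets are not compared with each other. In bulk RNA, fewer cells making a transcript and less of it per cell cannot be told apart.

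The arrays' median deposited signals ran from 16.3 to 35.9. MyoD replicate 5 and hrGFP replicate 5 stood apart: the 3' to 5' signal ratio of the beta-actin control was 25.7 and 37.6 on them and 0.968 to 1.11 on the other 10 arrays, and that of the Gapdh control 32.4 and 33 against 0.786 to 1.03. By chip lot and hybridization day, replicates 3 and 4 of hrGFP, MyoD and Myf5 formed array batch 1, replicate 5 of these groups batch 2, and the myogenin arrays batch 3, so for myogenin batch and group cannot be told apart. The experiment files give Myf5 5 and hrGFP 5 the same internal code, although their signals differ. Both were kept in the groups of their titles, and Cxcl12, Il4ra and Il1rap are given below with and without them. All 8 fibroblast markers passed the filter, with Vim, an intermediate filament gene, at 7.15 to 27.2. The summed normalised signal of the 8 was 4499 to 4742 in hrGFP, 4256 to 4971 in Myf5, 3619 to 4686 in MyoD and 6643 to 9357 in myogenin arrays. Of 10 macrophage and leukocyte markers 5 passed. Cd14 (77.1 to 169) and Csf1r (23.8 to 94.1) were above the filter signal on all 12 arrays, Cd68 on 10, Fcgr3 on 5 and Ly6g on 4. Ptprc, Itgam, Adgre1, Lyz2 and Cd3e were above it on 0 arrays. The sum over all 10 was 225 to 289 in hrGFP, 156 to 282 in Myf5, 198 to 245 in MyoD and 255 to 338 in myogenin arrays. Of 4 endothelial markers 1 passed, Kdr on 4 arrays, and of 4 epithelial markers 2, Cdh1 on all 12 arrays (41.5 to 87.6) and Krt18 on 3.

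As a check of the labels, the probe sets of the 3 factors and 5 muscle markers were read. Myog, the gene of myogenin, had 88.5, 71.6 and 125 in the myogenin arrays, 74.2, 66.4 and 75.3 in the Myf5 arrays, 21.2, 55.8 and 49.3 in the hrGFP arrays and 501, 511 and 136 in the MyoD arrays, which were all above the rest. Myod1 had 41.2 to 63.1 in the MyoD arrays and 39.8 to 101 in the others, and Myf5 had 38.8 to 85.6 in the Myf5 arrays and 44.2 to 117 in the others. No factor's own probe set thus set its group apart from the other 9 arrays, and whether these probe sets match the stretch carried by the viruses is not stated by the labels. The Myod1 and Myf5 probe sets exceeded the filter signal on all 12 arrays, with 46.6 to 63.3 and 44.2 to 117 on the hrGFP arrays. The line has no functional copy of either gene, so a signal above the filter need not mean a functional transcript. The source of these signals was not tested. Of the muscle markers (Acta1, Tnnt3, Chrna1, Des and Myog) 4 were higher and called with MyoD against hrGFP, 0 with Myf5 and 0 with myogenin, where by limma 2 and 4 had an unadjusted p under 0.05. Acta1, the skeletal alpha-actin gene, had a change of 6.19 ± 0.67, 2.58 ± 0.67 and 3.75 ± 0.67 with MyoD, Myf5 and myogenin (limma adjusted p = 0.000847, 0.973 and 0.0545). The labels of the Myf5 and myogenin arrays were therefore not borne out by a called marker.

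Upstream sequences are shown for Ccl8 and Il6, whose hrGFP arrays lay below all others, for Ccl12, the untested neighbour of Ccl8, and for Cxcl1, a chemokine above the filter on all arrays. Each run holds the 250 bases before the gene's start in RefSeq (GRCm38.p6), on the plus strand. In Ccl8 and Ccl12 capitals mark E-boxes, CANNTG, the core motif of myogenic bHLH factors. In Il6 and Cxcl1 they mark an NF-kappa-B motif on either strand (GGG, any 3 bases, TTCC), and the last 2 matches in Cxcl1 overlap. The windows of Il6 and Cxcl1 also hold 1 E-box each, left in lower case: caaatg, 51 to 46 bases before the start of Il6, and cacttg, 212 to 207 bases before that of Cxcl1.
Ccl8, chr11:82114935-82115184: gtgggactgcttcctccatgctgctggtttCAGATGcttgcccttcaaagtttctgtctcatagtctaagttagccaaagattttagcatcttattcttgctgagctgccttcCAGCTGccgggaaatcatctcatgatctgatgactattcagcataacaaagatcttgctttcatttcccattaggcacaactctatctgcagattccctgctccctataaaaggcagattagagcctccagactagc
Ccl12, chr11:82101595-82101844: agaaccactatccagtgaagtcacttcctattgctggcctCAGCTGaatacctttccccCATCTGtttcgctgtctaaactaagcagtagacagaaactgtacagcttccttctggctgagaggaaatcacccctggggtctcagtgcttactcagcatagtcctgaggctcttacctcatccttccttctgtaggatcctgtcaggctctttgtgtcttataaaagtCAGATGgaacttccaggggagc
Il6, chr5:30012864-30013113: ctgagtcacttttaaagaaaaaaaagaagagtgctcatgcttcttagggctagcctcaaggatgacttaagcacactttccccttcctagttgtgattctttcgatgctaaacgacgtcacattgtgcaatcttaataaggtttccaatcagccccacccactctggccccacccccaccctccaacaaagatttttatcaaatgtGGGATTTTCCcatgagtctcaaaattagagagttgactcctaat
Cxcl1, chr5:90890995-90891244: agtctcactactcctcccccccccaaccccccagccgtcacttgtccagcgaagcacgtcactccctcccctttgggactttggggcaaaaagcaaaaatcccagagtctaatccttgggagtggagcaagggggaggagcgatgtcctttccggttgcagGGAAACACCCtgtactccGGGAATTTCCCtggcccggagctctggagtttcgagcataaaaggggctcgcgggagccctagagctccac

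An E-box, searched on both strands, was found in 66.2% of 32851 such windows in the RefSeq table, and the NF-kappa-B motif in 4.65%. Windows were listed for 63 of the 80 genes, of which 49 held an E-box and 13 the NF-kappa-B motif. A gene counted if any of its listed windows matched, whereas the shares are of single windows, so the counts and shares are not on the same measure. For the 24 of them above the filter these counts were 19 and 7, and for the 39 not above it 30 and 6. The TATA box form TATAAA, in 12.4% of all windows, was found in those of Ccl8 and Ccl12. The AP-1 form TGANTCA, in 6.75% of all windows, was found in that of Il6. A match describes letters in the window and is not evidence of binding.

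By role, beside 76.1% of all genes, the counts above the filter were as follows. Of 14 CC chemokines 7 passed, of 8 CXC chemokines 3, and of 13 chemokine receptors 3. Of 19 interleukins 4 passed, of 22 interleukin receptor chains 12, and of 4 decoys and antagonists 2. The filter signal was exceeded on all 12 arrays by 12 genes: Ccl2, Ccl7, Ccl22, Cxcl1, Cxcl5, Cxcl12, Il1r1, Il4ra, Il6st, Il10rb, Il18rap and Il27ra. It was exceeded on 0 arrays by 36 genes, on 1 array by 7 and on 2 arrays by 6. Just inside the filter were Il1rap, Il18bp and Ccl3, with a third-highest deposited signal of 15.3, 15.2 and 15.2. Just outside were Ccr7, Il18 and Ccl9, with 14.4, 14.3 and 14.3.

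**Figure D1:**
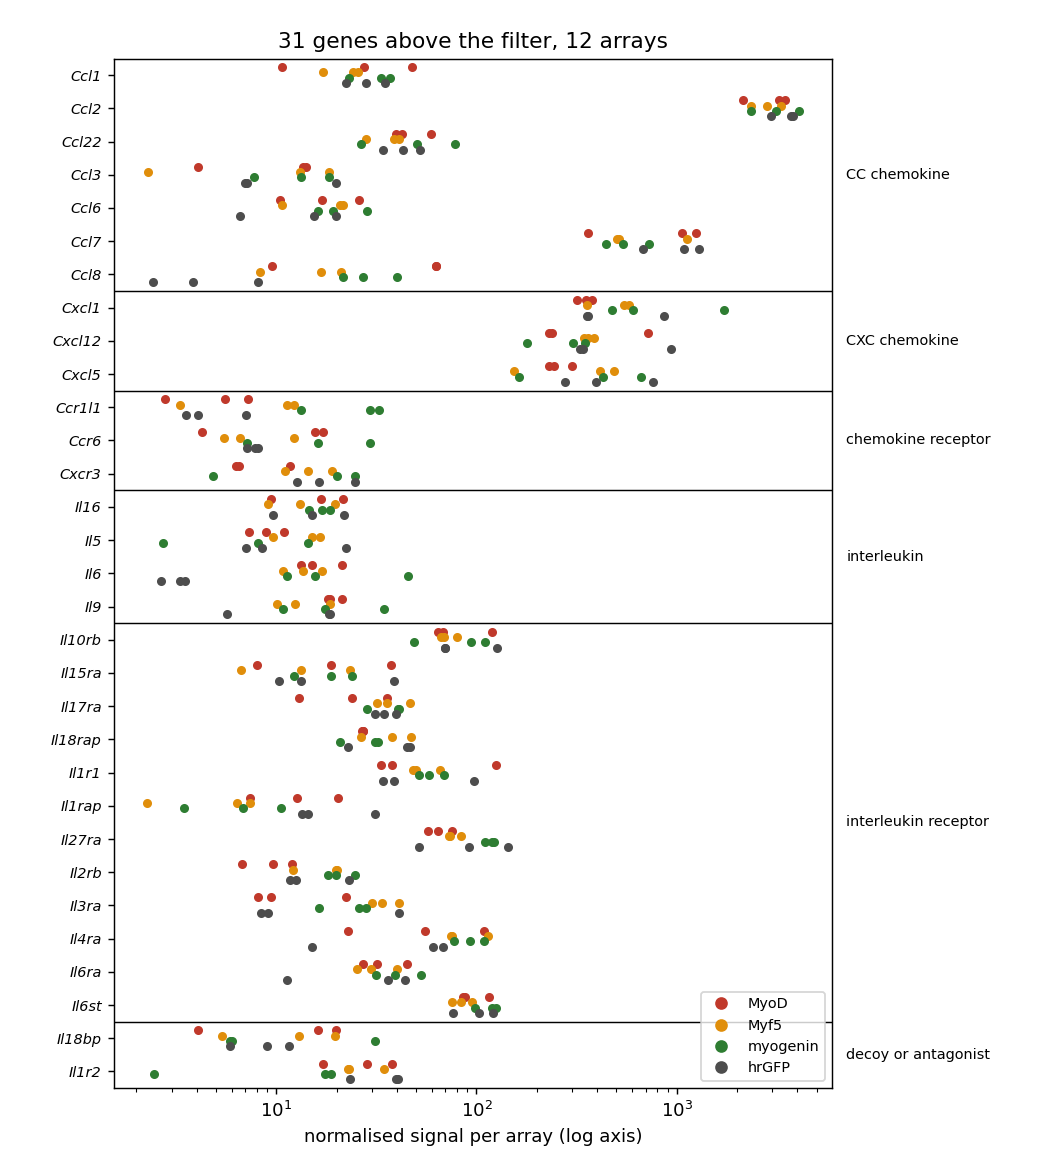
Normalised signal of the 31 genes above the filter on each of the 12 arrays (log axis), 1 point per array coloured by group, with genes ordered by role. The points of the groups overlap for most genes, while the hrGFP points of Ccl8 (up to 8.15) and Il6 (up to 3.52) lie below all other points of the same gene.

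None of the 31 genes was called in any of the 6 comparisons by limma. Against hrGFP, 0.412% of all probe sets were called with MyoD, 0.0118% with Myf5 and 0.13% with myogenin. The shares were 0.224% for MyoD against Myf5, 0.412% for MyoD against myogenin and 0.0354% for Myf5 against myogenin. The counts behind these shares changed with single arrays. Leaving out 1 array at a time gave 15 (without MyoD 4) to 36 called probe sets of 8485 for MyoD against hrGFP, in place of 35, and 7 (without myogenin 6) to 30 (without MyoD 5) for myogenin, in place of 11. For MyoD against Myf5 it gave 4 (without MyoD 3 or MyoD 4) to 31 (without MyoD 5) in place of 19. For MyoD against myogenin it gave 3 (without myogenin 2) to 60 (without hrGFP 5) in place of 35. Myf5 had 1 to 3 against hrGFP and 0 to 5 against myogenin, the latter becoming 136 in a fit of these 2 groups alone. An unadjusted p under 0.05 was found for 2 of the 31 with MyoD (Ccl8 and Il6, beside 3.55% of all probe sets), for 2 with Myf5 (Il1rap and Il6, beside 3.01%) and for 5 with myogenin (Ccl8, Ccr1l1, Il1r2, Il1rap and Il6, beside 11.5%). Between factors the counts were 1, 5 and 2, beside 3.71%, 13.8% and 9.18%, in the order above. The comparisons share arrays. Of the genes counted against hrGFP, Ccl8, Il6 and Ccr1l1 exceeded the filter signal on 0 hrGFP arrays, and Il1rap on 0 Myf5 and 0 myogenin arrays. They passed the filter through the groups where they were high, so these counts are no support for a change.

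Called or not, 13 of the 31 genes had a higher mean with MyoD than with hrGFP, beside 48.5% of all probe sets, 15 with Myf5, beside 45.8%, and 20 with myogenin, beside 48.9%. Their median change was -0.071, -0.011 and 0.18, and that of all probe sets -0.011, -0.033 and -0.012. Single arrays moved the medians of the 31. Leaving out 1 array at a time gave -0.34 (without MyoD 5) to 0.027 (without hrGFP 5) with MyoD, -0.15 (without Myf5 3) to 0.034 (without hrGFP 5) with Myf5, and 0.020 (without hrGFP 3) to 0.27 (without myogenin 3) with myogenin. The number higher was then 7 (without hrGFP 3) to 16 with MyoD, 12 to 16 with Myf5 and 18 to 21 with myogenin. MyoD was the higher for 18 genes against Myf5 and 10 against myogenin, and Myf5 for 8 against myogenin, beside 52.2%, 50.1% and 51.7% of all. The 95% interval of a change, before adjustment, reached 0.50 to 1.15 to either side, with a median of 0.81. A call needed more than leaving this interval. Among all probe sets the smallest called change in size was 1.42 with MyoD, 2.98 with Myf5 and 1.69 with myogenin against hrGFP. Changes larger than the interval could thus go uncalled, and 0 calls among the 31 do not exclude them. The median within-group SD was 0.48 for the 31 genes and 0.41 for all probe sets tested.

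Groups did not overlap for 3 of the 31 genes in MyoD against hrGFP, for 4 in Myf5 against hrGFP and for 6 in myogenin against hrGFP, beside 5.28%, 8.66% and 18.1% of all probe sets. Those with MyoD were Ccl8, Cxcr3 and Il6, of which Cxcr3 exceeded the filter signal on 0 MyoD arrays and passed it through other groups. The 3 hrGFP arrays were all below the other 9 for Ccl8 and Il6, 2 of the 31, beside 0.412% of all, and the myogenin arrays all above for Ccr1l1 alone, beside 3.15%. Ccl8 and Il6 exceeded the filter signal on 0 hrGFP arrays. Ccl8, Il6 and Ccr1l1 passed the filter through the groups where they were high, so their order of groups is partly built into the choice and is no support for a change. No other arrangement of this kind was found among the 31, beside 0.318% of all probe sets for hrGFP above, 0.742% and 0.271% for MyoD above and below, 0.365% and 0.342% for Myf5, and 3.65% for myogenin below.

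Deviations from the group mean correlated at 0.39 to 0.83 between MyoD and hrGFP arrays of the same replicate number. Between Myf5 and hrGFP they did so only weakly, at 0.11 to 0.33. Both comparisons were also read as 3 pairs, numbered 3, 4 and 5, a reading added after seeing the data. The MyoD array was below its hrGFP partner in all 3 pairs for 9 of the 31 genes, Ccl2, Cxcl1, Cxcl12, Cxcl5, Cxcr3, Il10rb, Il1r2, Il1rap and Il2rb, beside 14.7% of all probe sets, and above it for 2, Ccl8 and Il6, beside 13.6%. The Myf5 array was below in all 3 pairs for 5, Ccl1, Ccl2, Ccl22, Il10rb and Il1rap, beside 14.9%, and above for 3, Ccl8, Il4ra and Il6, beside 11.6%. With the replicate number as a block in limma, 0 of the 31 genes were called in either comparison, beside 0.412% and 0.0471% of all probe sets, the latter 4 probe sets in place of 1. An unadjusted p under 0.05 was then found for 3 with MyoD, Ccl8, Cxcr3 and Il6, beside 4.07%, and for 5 with Myf5, Ccl2, Il1rap, Il3ra, Il4ra and Il6, beside 4.6%. Of the genes named here, Ccl8 and Il6 exceeded the filter signal on 0 hrGFP arrays, Cxcr3 and Il2rb on 0 MyoD arrays and Il1rap on 0 Myf5 arrays. Their order of groups is thus partly built into the filter. The block left the changes as they were and narrowed some errors: with MyoD the change was -0.27 ± 0.12 for Ccl2, -0.46 ± 0.26 for Cxcl1, -0.76 ± 0.34 for Cxcl5 and -0.46 ± 0.33 for Cxcl12 (blocked limma adjusted p = 1 for each). With Myf5 that of Ccl2 was -0.30 ± 0.12 (blocked limma adjusted p = 0.809). Other errors widened with the block, such as, with MyoD, that of Il15ra from 0.48 to 0.54 and that of Ccl3 from 0.46 to 0.52. Replicate 5 is also array batch 2, so pair and batch cannot be told apart there. MyoD 5 and hrGFP 5, whose deviations correlated at 0.83, also share the high control ratios, so pair and ratio cannot be told apart for them. Myf5 5, of the same batch, correlated with them at 0.11 each. Because deviations cancel out within a group, the likeness of MyoD 5 and hrGFP 5 also raises the values for numbers 3 and 4. These values thus cannot show that MyoD and hrGFP arrays are paired by number. Myf5 5 and hrGFP 5 are the arrays with the same internal code.

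**Figure D2:**
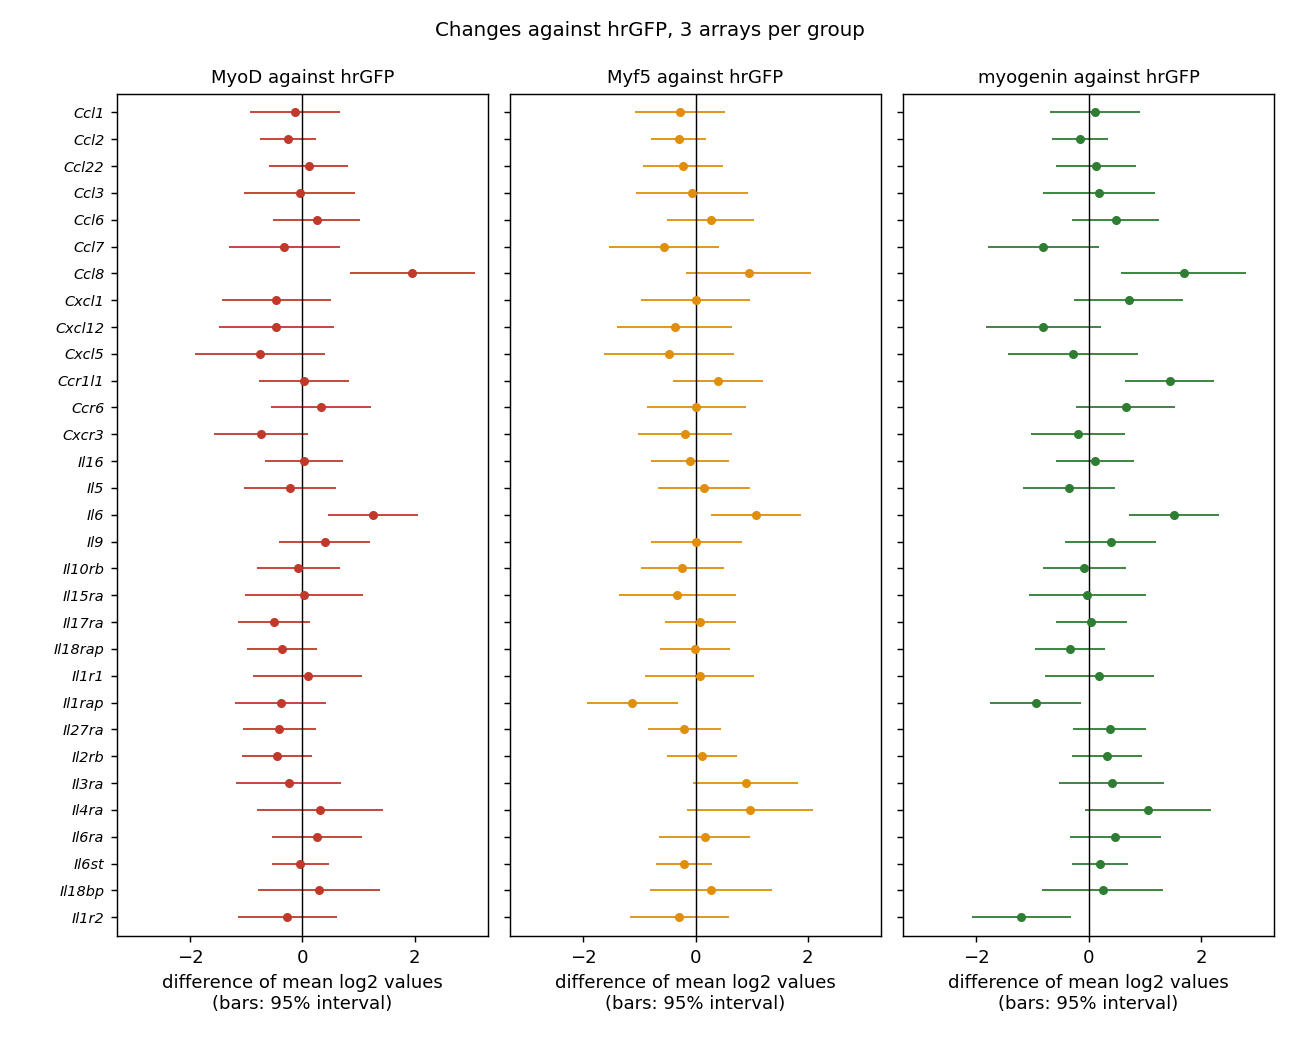
Change against hrGFP of each of the 31 genes, as the difference of mean log2 values with bars for the 95% interval from limma, in 1 panel per factor (3 arrays per group). Most bars cross 0, while those of Il6 lie above 0 in each panel (1.25, 1.07 and 1.52) without passing after adjustment.

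Ccl2, the monocyte chemoattractant MCP-1, had signals of 2965, 3710 and 3793 in the hrGFP arrays, 2145, 3473 and 3225 in the MyoD arrays, 2357, 3329 and 2830 in the Myf5 arrays, and 3128, 4095 and 2357 in the myogenin arrays. The groups overlapped in each comparison, while each MyoD and Myf5 array was below the hrGFP array of the same number. Its change against hrGFP was -0.27 ± 0.23, -0.30 ± 0.23 and -0.16 ± 0.23 with MyoD, Myf5 and myogenin in turn (limma adjusted p = 1, 0.973 and 0.781), and the intervals were -0.76 to 0.23, -0.80 to 0.20 and -0.65 to 0.34.

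Ccl7, the related chemoattractant MCP-3 and the next gene to Ccl2 on chromosome 11, had 675, 1085 and 1292 in the hrGFP arrays, 360.3, 1253 and 1065 in the MyoD arrays, 512, 1122 and 506 in the Myf5 arrays, and 446, 729 and 536 in the myogenin arrays. Replicates spread more than those of Ccl2, with MyoD 3 the lowest array, and the groups overlapped. The change was -0.32 ± 0.45, -0.56 ± 0.45 and -0.81 ± 0.45 for the 3 factors in the same order (limma adjusted p = 1, 0.973 and 0.509). In each group the array highest for Ccl2 was also the highest for Ccl7: MyoD 4, Myf5 4, myogenin 3 and hrGFP 5.

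Ccl8, the chemoattractant MCP-2 of the same cluster, had 3.86, 2.43 and 8.15 in the hrGFP arrays, 9.48, 63.02 and 62.7 in the MyoD arrays, 8.34, 20.9 and 16.7 in the Myf5 arrays, and 21.6, 27.2 and 40.1 in the myogenin arrays. All hrGFP arrays were below the other 9, although MyoD 3 and Myf5 3 were close to hrGFP 5. The change was 1.96 ± 0.51 with MyoD (interval 0.85 to 3.07), 0.94 ± 0.51 with Myf5 and 1.69 ± 0.51 with myogenin, none passing (limma adjusted p = 0.312, 0.973 and 0.257). MyoD 3 decided the first call: without it the change was 2.67 and passed (limma adjusted p = 0.0108), which happened under no other alternative run. Without MyoD 5 and hrGFP 5 the change with MyoD was 1.81 (adjusted p = 0.397), and within array batch 1 it was also 1.81 (adjusted p = 0.904). The signal exceeded the filter signal on 0 hrGFP arrays, so the gene was tested through the groups where it was high.

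Ccl2, Ccl7, Ccl11, Ccl12, Ccl8 and Ccl1 follow each other as protein-coding genes on mouse chromosome 11. Ccl11, the eosinophil attractant eotaxin, exceeded the filter signal on 2 arrays, with deposited signals of 2.60 to 18.1. Ccl12, a mouse monocyte chemoattractant, did so on 0 arrays, with 1.85 to 14.2. Ccl1, a ligand of Ccr8, had normalised signals of 10.7 to 47.4 with overlapping groups, and its second probe set exceeded the filter signal on 1 array.

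The other CC chemokines above the filter were Ccl22, a ligand of Ccr4 made by macrophages and dendritic cells, with 26.4 to 78.01, and Ccl3 and Ccl6, both known from macrophages, with 2.29 to 19.97 and 6.60 to 28.5. Their groups overlapped in each comparison. The changes of Ccl1, Ccl3, Ccl6 and Ccl22 against hrGFP lay between -0.27 and 0.48 for the 3 factors.

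Cxcl1, which attracts neutrophils through Cxcr2, had 864, 362 and 356 in the hrGFP arrays, 376, 318 and 352 in the MyoD arrays, 577, 355 and 548 in the Myf5 arrays, and 605, 1726 and 475 in the myogenin arrays. Myogenin 3 was far above all other arrays, as it also was on a second probe set (1138). The change against hrGFP was -0.46 ± 0.45, 0.003 ± 0.45 and 0.71 ± 0.45 for MyoD, Myf5 and myogenin (limma adjusted p = 1, 0.999 and 0.542). Without myogenin 3 the last was 0.15. The second probe set gave -0.51, -0.003 and 0.46. MyoD against myogenin gave -1.17 ± 0.45 (limma adjusted p = 0.294), with the MyoD arrays all lower.

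Cxcl5, another ligand of Cxcr2, had 764, 278 and 397 in the hrGFP arrays, 231, 244 and 301 in the MyoD arrays, 414, 154 and 484 in the Myf5 arrays, and 429, 661 and 162 in the myogenin arrays. The groups overlapped, each MyoD array was below the hrGFP array of the same number, and its within-group SD, 0.77, exceeded that of 92.4% of the probe sets tested. The array highest for Cxcl5 was the highest for Cxcl1 in the hrGFP and myogenin groups, and another one in the MyoD and Myf5 groups. The changes of -0.76 ± 0.53, -0.47 ± 0.53 and -0.28 ± 0.53 did not pass (limma adjusted p = 1, 0.973 and 0.828).

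**Figure D3:**
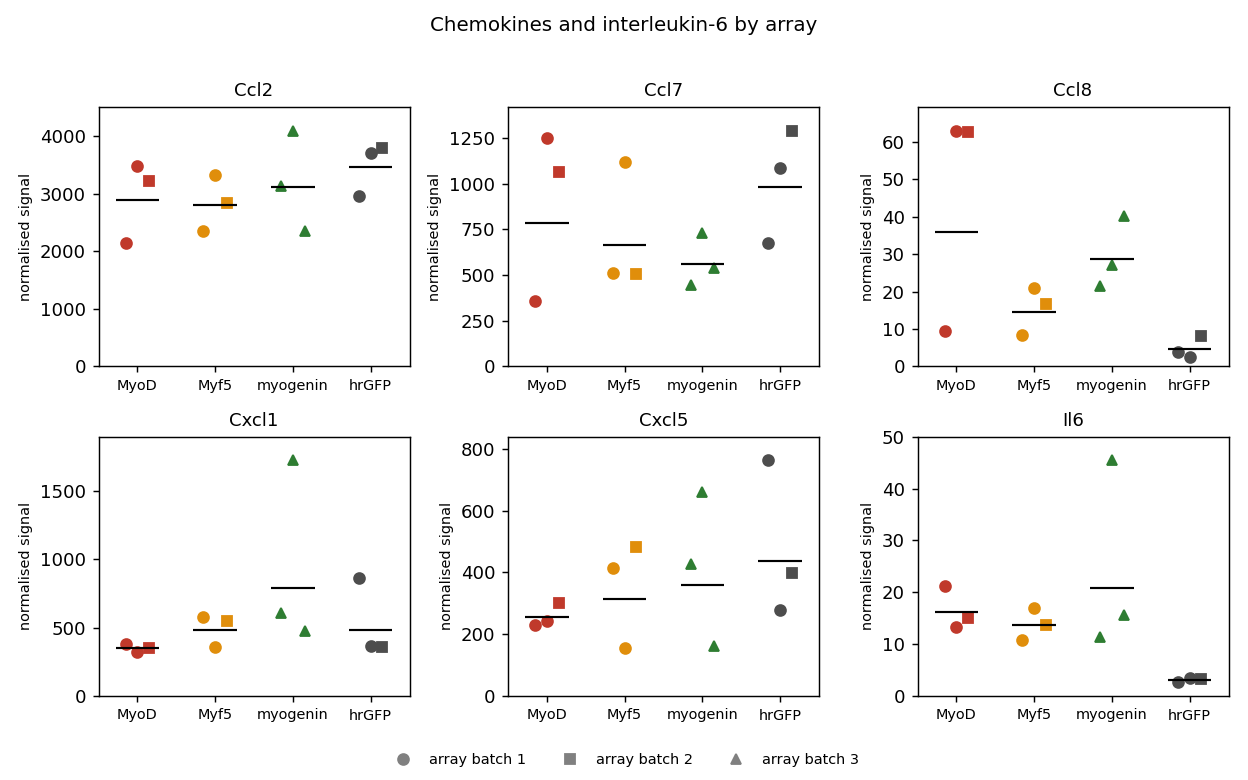
Normalised signal (linear axis from 0, its own scale per panel) of Ccl2, Ccl7, Ccl8, Cxcl1, Cxcl5 and Il6 on each array, with a bar at the mean log2 value of each group and point shapes for array batches. The hrGFP points of Ccl8 and Il6 are the lowest of their panels, and the highest Cxcl1 point, 1726, is myogenin 3.

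Cxcl12, or SDF-1, the ligand of Cxcr4, had 339, 330.4 and 934 in the hrGFP arrays, 239.5, 229 and 717 in the MyoD arrays, 344, 386 and 361 in the Myf5 arrays, and 349, 304 and 179 in the myogenin arrays. Far above the rest were MyoD 5 and hrGFP 5, the arrays with high control ratios. On the 2 other Cxcl12 probe sets these arrays did not stand apart, with 199.8 and 227 in a range of 162 to 335, and with 86.9 and 93.3 in a range of 60.6 to 114. The change of the first probe set was -0.46 ± 0.47, -0.37 ± 0.47 and -0.81 ± 0.47 for MyoD, Myf5 and myogenin (limma adjusted p = 1, 0.973 and 0.518). Its values on the arrays other than MyoD 5 and hrGFP 5 gave -0.50, 0.12 and -0.32. The second probe set gave -0.33 ± 0.22, 0.31 ± 0.22 and -0.31 ± 0.22 and the third -0.10 ± 0.20, 0.088 ± 0.20 and -0.41 ± 0.20 (limma adjusted p = 1, 0.973 and 0.579, and 1, 0.973 and 0.466), so the direction with Myf5 differed between probe sets. Without hrGFP 5 alone that of the first with Myf5 was 0.12, and without Myf5 5 alone -0.37. Cxcr4 exceeded the filter signal on 0 arrays, with deposited signals of 0.455 to 4.58.

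MyoD 5 and hrGFP 5 were both above the other 10 arrays for 4 of the 31 genes, Cxcl12, Il10rb, Il1r1 and Il1rap, beside 25.2% of all probe sets. They were both below for Il4ra alone, beside 18.3%. On a second Il4ra probe set hrGFP 5 was the lowest array (1.88), while MyoD 5 (12.9) was within the range of the others. Il1r1, the signalling receptor for interleukin-1, had 125 and 97.02 on MyoD 5 and hrGFP 5 and 33.4 to 69.1 elsewhere. Il10rb, a chain shared by receptors of the interleukin-10 family, had 119.9 and 126 on them and 49.03 to 110.1 elsewhere. The part of the control ratios in these values was not tested.

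In a comparison chosen after seeing the data, replicate 5 of MyoD, Myf5 and hrGFP was set against their replicates 3 and 4, with a mean for each group. By limma 0 of the 31 genes and 0% of all probe sets were called, while an unadjusted p under 0.05 was found for 5 of the 31 and for 32.2% of all probe sets. The lowest adjusted p among the 31 was 0.0625, for Il4ra at -1.19 ± 0.31 and for Cxcl12 at 1.01 ± 0.27. Il10rb had 0.61 ± 0.20 and Il1r1 0.90 ± 0.31 (limma adjusted p = 0.0773 and 0.0902). The comparison pools Myf5 5 with MyoD 5 and hrGFP 5, the arrays with high control ratios. Myf5 5 had 361 for Cxcl12, 74.2 for Il4ra and 48.3 for Il1r1, beside 344 and 386, 75.4 and 115, and 49.8 and 65.7 on Myf5 3 and 4. It thus did not stand apart for these 3 genes. For Il10rb it had 79.7, beside 68.6 and 66.2.

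**Figure D4:**
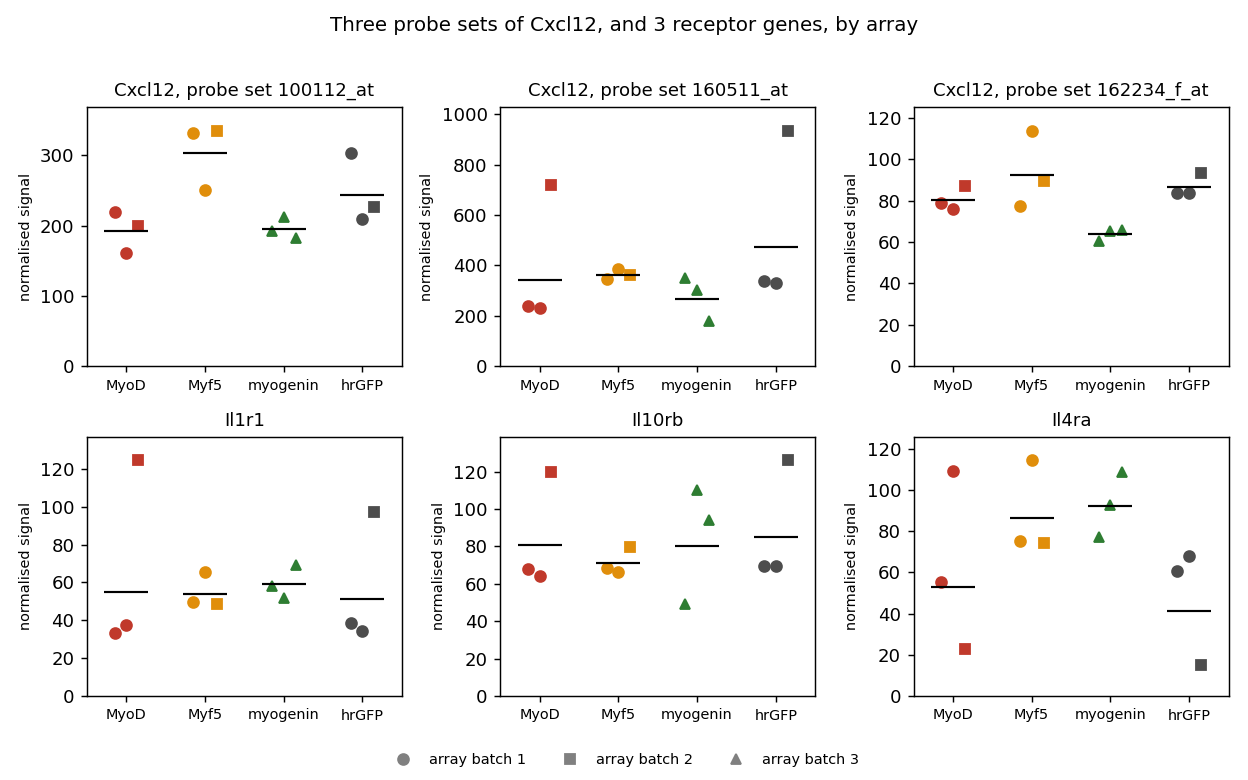
Normalised signal (linear axis from 0) of the 3 Cxcl12 probe sets and of Il1r1, Il10rb and Il4ra on each array, with a bar at the mean log2 value of each group and squares for array batch 2. The MyoD and hrGFP squares are highest for the Cxcl12 probe set in the upper middle panel (717 and 934), Il1r1 and Il10rb and lowest for Il4ra, but not extreme for the other Cxcl12 probe sets.

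Most chemokine receptors were not above the filter. Ccr2, a receptor for Ccl2 and Ccl7, and Cxcr2, for Cxcl1 and Cxcl5, exceeded the filter signal on 0 arrays, with deposited signals of at most 9 and 12.95. Ccr4, for Ccl22, also did so on 0 arrays, with at most 10.1.

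Ccr1l1, a relative of Ccr1, had 32.6, 13.3 and 29.6 in the myogenin arrays, 4.09, 3.54 and 7.06 in the hrGFP arrays, 5.52, 7.23 and 2.80 in the MyoD arrays, and 3.32, 11.3 and 12.3 in the Myf5 arrays. The myogenin arrays were above the other 9. The change was 1.44 ± 0.37 for myogenin against hrGFP, -1.41 ± 0.37 for MyoD against myogenin and -1.04 ± 0.37 for Myf5 against myogenin, none passing (limma adjusted p = 0.18, 0.154 and 0.405). With a pseudocount of 1 the first was 2.10. It exceeded the filter signal on 3 myogenin arrays and 1 Myf5 array, so it passed the filter through the group where it was high.

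Cxcr3, a receptor of T cells for interferon-induced chemokines, had 16.4, 24.7 and 12.7 in hrGFP arrays and 11.8, 6.51 and 6.31 in MyoD arrays. The MyoD values were all lower, and the change of -0.73 ± 0.39 did not pass (limma adjusted p = 1). Cxcr3 exceeded the filter signal on 0 MyoD, 1 Myf5, 2 myogenin and 2 hrGFP arrays. It thus passed the filter through groups where it was higher, so this order is partly built into the choice. Its ligands Cxcl9 and Cxcl10 exceeded the filter signal on 0 arrays, with at most 6.43 and 8.86. Ccr6, the receptor for Ccl20, had 4.28 to 29.4 with overlapping groups, and changes of 0.33 ± 0.41, 0.015 ± 0.41 and 0.66 ± 0.41 for MyoD, Myf5 and myogenin.

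Among the interleukins, Il6, for interleukin-6, had 2.65, 3.52 and 3.31 in the hrGFP arrays, 21.2, 13.3 and 15.1 in the MyoD arrays, 10.8, 16.9 and 13.7 in the Myf5 arrays, and 11.3, 45.5 and 15.7 in the myogenin arrays. The hrGFP arrays were all below the other 9, and closely spaced. The change was 1.25 ± 0.37 with MyoD (interval 0.45 to 2.06), 1.07 ± 0.37 with Myf5 (interval 0.27 to 1.88) and 1.52 ± 0.37 with myogenin (interval 0.72 to 2.32), none passing (limma adjusted p = 0.517, 0.973 and 0.152). The 3 comparisons share the hrGFP arrays. Within array batch 1 the change was 1.31 with MyoD and 1.08 with Myf5. Only 4 of the 12 arrays, 0 of them hrGFP, exceeded the filter signal, and with a pseudocount of 1 the changes were 2.06, 1.81 and 2.36, beside 2.71, 1.52 and 2.47 for Ccl8.

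Both chains of the interleukin-6 receptor passed the filter. Il6ra, the ligand-specific chain, had 11.4 to 52.99, and Il6st, the shared signalling chain, 75.4 to 125. Their changes against hrGFP were 0.26 ± 0.37, 0.16 ± 0.37 and 0.48 ± 0.37 for Il6ra and -0.038 ± 0.23, -0.21 ± 0.23 and 0.20 ± 0.23 for Il6st with MyoD, Myf5 and myogenin (limma adjusted p = 1, 0.973 and 0.606, and 1, 0.973 and 0.718). A second Il6st probe set had 66.2, 58.8 and 14.02 in the hrGFP arrays, 46.8, 40.8 and 17.5 in the MyoD arrays, 46.9, 56.5 and 34.03 in the Myf5 arrays and 72.2, 54.95 and 64.4 in the myogenin arrays. MyoD 5 and hrGFP 5 were its lowest arrays, whereas on the first probe set they were the highest of their groups. Its changes were -0.23 ± 0.45, 0.16 ± 0.45 and 0.61 ± 0.45 (limma adjusted p = 1, 0.973 and 0.592), so with Myf5 the probe sets differed in sign. Without hrGFP 4 the changes of Il6ra with MyoD and Myf5 turned to -0.20 and -0.30. Il11, whose product also signals through gp130, exceeded the filter signal on 0 arrays, with at most 5.25.

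The other interleukins above the filter, Il5, Il9 and Il16, are known from lymphocytes and mast cells. They had 2.73 to 22.2, 5.68 to 34.6 and 9.08 to 21.8 with overlapping groups, and their changes against hrGFP lay between -0.35 and 0.40. The other 15 interleukins were not tested, among them Il1a and Il1b on 0 arrays above the filter signal, with at most 14.4 and 4.

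Of the interleukin-1 receptors, the decoy Il1r2 had 23.3, 40.7 and 39.5 in the hrGFP arrays, 17.2, 28.5 and 37.9 in the MyoD arrays, 34.5, 22.8 and 23.1 in the Myf5 arrays, and 2.44, 17.5 and 18.8 in the myogenin arrays. The myogenin arrays were below the hrGFP arrays, with myogenin 2 the lowest. The change with myogenin was -1.20 ± 0.41, and -1.42 ± 0.33 on a second probe set (limma adjusted p = 0.298 and 0.133). Without myogenin 2 that of the first was -0.71.

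Il1rap, the accessory chain of the interleukin-1 receptor, had 13.5, 14.4 and 31.3 in the hrGFP arrays, 7.38, 12.7 and 20.3 in the MyoD arrays, 2.26, 6.39 and 7.44 in the Myf5 arrays, and 3.46, 6.84 and 10.6 in the myogenin arrays. The Myf5 and myogenin arrays were below the hrGFP arrays. The changes of -1.12 ± 0.38 and -0.94 ± 0.38 did not pass (limma adjusted p = 0.973 and 0.365). Without hrGFP 5 they were -0.83 and -0.65, and without Myf5 5 the first was -1.25. It exceeded the filter signal on 2 hrGFP arrays and 1 MyoD array, and so passed the filter through those.

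Il4ra, the receptor chain for interleukins 4 and 13, had 60.9, 67.9 and 15.1 in the hrGFP arrays, 55.3, 109.5 and 22.8 in the MyoD arrays, 75.4, 115 and 74.2 in the Myf5 arrays, and 77.4, 92.7 and 109 in the myogenin arrays. The Myf5 and myogenin arrays were above the hrGFP arrays, of which hrGFP 5 was far below the others. The changes were 0.32 ± 0.52, 0.97 ± 0.52 and 1.05 ± 0.52 for MyoD, Myf5 and myogenin (limma adjusted p = 1, 0.973 and 0.456). Without Myf5 5 the second was 1.07. Without MyoD 5 and hrGFP 5 the 3 changes were 0.26, 0.39 and 0.48. A second Il4ra probe set, above the filter signal on 4 arrays, had 11.9, 12.8 and 1.88 in the hrGFP arrays and 13.9, 4.17 and 20.1 in the Myf5 arrays. There the Myf5 and hrGFP groups overlapped, while the myogenin arrays (14.02 to 18.8) were again above the hrGFP arrays. Its changes were 0.14 ± 0.43, 0.32 ± 0.43 and 0.64 ± 0.43 for MyoD, Myf5 and myogenin, none passing. Il4 exceeded the filter signal on 1 array, Il13 on 0, and Il13ra1, the partner chain, on 2.

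Il3ra, a receptor chain for interleukin-3, had 8.43, 41.2 and 9.13 in the hrGFP arrays, 8.11, 22.4 and 9.40 in the MyoD arrays, 33.8, 41.03 and 30.1 in the Myf5 arrays, and 16.4, 28.1 and 25.96 in the myogenin arrays. The Myf5 arrays were above the MyoD and myogenin arrays, and the hrGFP arrays spanned them. MyoD against Myf5 gave -1.14 ± 0.43 (limma adjusted p = 0.937). Il3ra and Il2rb were the 2 of 31 genes without overlap there, beside 9.76% of all probe sets. Il2rb exceeded the filter signal on 0 MyoD arrays, and so passed the filter through other groups.

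Il27ra, the receptor chain for interleukin-27, had 119, 110.3 and 122 in myogenin arrays and 57.3 to 83.6 in the MyoD and Myf5 arrays, with 51.8, 144 and 91.96 in hrGFP arrays. The myogenin values were above both other factors, within the hrGFP range. Il2rb, a chain shared by receptors for interleukins 2 and 15, had 6.73 to 12.03 in MyoD arrays and 18.1 to 24.9 in myogenin arrays. Il2rb exceeded the filter signal on 0 MyoD, 2 Myf5, 3 myogenin and 1 hrGFP arrays. It thus passed the filter through groups where it was higher, so this order is partly built into the choice. MyoD against myogenin gave -0.78 ± 0.30 for Il27ra and -0.79 ± 0.29 for Il2rb (limma adjusted p = 0.29 and 0.274). Groups did not overlap for 4 of the 31 genes there and for 6 in Myf5 against myogenin, beside 22.4% and 26.4% of all probe sets.

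The remaining genes above the filter were Il15ra, for interleukin-15, with 6.70 to 38.9, Il17ra, for interleukin-17, with 13 to 46.5, Il18rap, for interleukin-18, with 20.9 to 47.3, and Il18bp, a secreted inhibitor of interleukin-18, with 4.06 to 31.02. Their ligands Il15 and Il17a exceeded the filter signal on 0 arrays and Il18 on 1. The partner chain Il18r1 did so on 0. The change of Il17ra was -0.51 ± 0.29 with MyoD, and -0.53 ± 0.31 on a second probe set, neither passing (limma adjusted p = 1 for both).

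Lists of genes that act with these families were read from the same fit. Of 17 tested JAK-STAT and interleukin-6 family partners, 0 were called by limma in any of the 6 comparisons, and 1, 0 and 0 had an unadjusted p under 0.05 with MyoD, Myf5 and myogenin against hrGFP. Their median changes were 0.19, -0.066 and 0.18. The 1 gene was Cish, a feedback inhibitor of cytokine signalling, at -0.88 ± 0.26 with MyoD (limma adjusted p = 0.517). Of 19 genes of NF-kappa-B and Toll or interleukin-1 signalling 0 were called, 0, 1 and 0 had such an unadjusted p, and the medians were -0.065, 0.13 and -0.054. The NF-kappa-B subunit gene Rela and the inhibitor gene Nfkbia exceeded the filter signal on all 12 arrays.

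Of 18 other cytokine and receptor genes 0 were called by limma, 1, 0 and 4 had an unadjusted p under 0.05 and the medians were -0.001, 0.042 and 0.25. Kitl, the ligand of Kit, had -1.28 ± 0.34 and Csf1, the macrophage colony-stimulating factor, 1.08 ± 0.41 with myogenin (limma adjusted p = 0.201 and 0.356). Of 14 adhesion and inflammatory genes 0 were called, 2, 3 and 3 had an unadjusted p under 0.05 and the medians were -0.16, 0.21 and 0.094. Selp, for P-selectin, had 1.79 ± 0.41 with MyoD and 2.06 ± 0.41 with Myf5 (limma adjusted p = 0.149 and 0.407). Saa3, an acute-phase gene, had 1.75 ± 0.56 and 1.51 ± 0.56 (adjusted p = 0.742 and 0.973). Mmp3, the protease stromelysin-1, had -2.03 ± 0.35 with myogenin, just short of passing (adjusted p = 0.0515).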

How the data were processed

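RNA was measured on 12 Affymetrix MG_U74Av2 arrays. The values deposited by the authors are intensity signals per probe set, which per the submitters' processing notes came from MAS5. No source used here gives its version or scaling. Other deposited files, holding each array's chip lot and hybridization day, defined the array batches. Trimmed mean signals, without 2% at each end, ran from 40.99 to 103, so the signals were quantile-normalized, with limma 3.58.1 in R 4.3.3. The pseudocount was the 25th percentile of all signals. Of 12422 probe sets besides 66 array controls, 8485 passed the filter. A model with a mean per group and a trend in the variance was fitted to all 12 arrays, and was tested on simulated data. The simulation drew independent noise for each array, without batches, pairs or arrays with high control ratios, so it does not cover these features. Symbols came from the platform's annotation: 10833 probe sets had 1, 396 had several and 1193 were not listed. All 80 genes were matched to RefSeq by gene number. The number of arrays limits the precision.

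The members, lists and rules were chosen with earlier results of these data known. By rule the text names called genes, the 5 largest rises and falls against hrGFP, genes with 1 group apart from the other 9 arrays, those nearest the filter and up to 4 genes per list. Ccl2, Il1r1, Il2rb, Il6ra, Il6st, Il10rb, Il27ra, the MyoD against myogenin value of Cxcl1, and the probe sets of the 3 factors fall outside this rule and were chosen after their values were seen. Further members are given by range. Deviations of same-numbered arrays from their group means correlated at 0.39 to 0.83 between MyoD and hrGFP and at 0.11 to 0.33 between Myf5 and hrGFP. The 0.83 was that of MyoD 5 and hrGFP 5, the arrays with high control ratios. All these values were over 0.1, so the numbers, which come from the titles, were taken to pair these groups. Between MyoD and Myf5, not read as pairs, they were -0.007 to 0.11, and myogenin shares 1 number with the others. The highest of these was as large as the lowest between Myf5 and hrGFP, so the pairing of the latter groups has a weak basis. Deviations cancel out within a group, so a likeness of MyoD 5 and hrGFP 5 also raises the values of the other same-numbered arrays of these groups. No values for arrays of unlike number are given here. The correlations thus cannot show that MyoD and hrGFP arrays are paired by number. Alternatives changed normalization, pseudocount, filter, blocks, variance model, groups fitted and arrays left out.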

Additional observations from a re-analysis of the deposited data

How the results depend on the processing

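The count of called genes by limma, 0 in each of the 6 comparisons, stayed 0 under each alternative run but 1. Leaving out 1 array at a time gave 0 to 1 called genes for MyoD against hrGFP, the 1 being Ccl8 without MyoD 3, and 0 in the other comparisons. The replicate block also gave 0 in each comparison, and changed no call of a named gene. For myogenin, no fit with array batch as a block or within a batch could be made. Of 1071 recomputed changes of named genes 1050 kept their direction and side of the threshold, 1 newly passed and 20 turned, the last all of changes that never passed. With the replicate block, where myogenin shares 1 number with the other groups, Ccl7 turned to 0.24, Ccl2 to 0.54 and Il6ra to -0.046 with myogenin. Il6st with Myf5 turned to 0.010 within array batch 1 and to 0.010 without array batch 2. Cxcl12 with Myf5 turned to 0.12 within array batch 1, to 0.12 without MyoD 5 and hrGFP 5, and to 0.12 without array batch 2, both alternatives that leave out arrays by name or batch being chosen after seeing the data. Leaving out 1 array gave -0.99 to 0.027 for Cxcl12 with MyoD, -0.63 to 0.12 for Cxcl12 with Myf5, -0.25 to 0.83 for Il4ra with MyoD, -0.80 to 0.029 for Cxcl5 with Myf5, -0.62 to 0.12 for Il15ra with Myf5, -0.35 to 0.045 for Ccl2 with myogenin, -0.20 to 0.56 and -0.30 to 0.45 for Il6ra with MyoD and Myf5, and -0.21 to 0.10 for Il6st with MyoD. The cause was not tested. With the pseudocount at the 50th percentile Ccl8 had 1.11 and Il6 0.56 with MyoD. Signals as deposited moved the median of all probe sets to 0.17 for myogenin against hrGFP and to -0.17 for MyoD against myogenin, with 23 and 6 of the 31 genes then higher.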

Other observations

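Of the 6 probe sets with several symbols, which are not among the 80 genes, that of Ccl19 and its copies had deposited signals of 43.1 to 84 and passed the filter. That of the Ccl21 copies had 4.71 to 24.7 and also passed. The others did not. Which copy gave these signals was not analysed here.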
